A study of Mus musculus with 2 samples.

Results

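The genes described here are the cyclins, the cyclin-dependent kinases (CDKs), the CDK inhibitors, the E2F transcription factors and the retinoblastoma family. They were taken by gene symbol alone, from every probe set whose annotated symbol names a cyclin, a numbered CDK, a CIP/KIP or INK4 inhibitor, E2f1 to E2f8, Rb1, Rbl1 or Rbl2. This gave 62 of 28846 probe sets and 61 of 19505 genes, with E2f3 measured by 2 probe sets. The name pattern also took Ccndbp1, which binds D cyclins, and Ccnb1ip1, a meiotic recombination factor, neither of which is a cyclin. Ccnb1, Ccnd1, Ccnf, Cdk9 and Cdk12 were not analysed here.

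The measurements come from mouse CD8 T cells of spleen and lymph node that were activated in culture through CD3 and CD28. Tc9 cells were polarized for 3 days with IL-4 at 10 ng/mL, TGF-β at 1 ng/mL and an antibody against interferon gamma at 20 μg/mL, and Tc1 cells with recombinant human IL-2 at 10 ng/mL, before both were kept for 2 days in IL-2 at 10 ng/mL and collected on day 5. Total RNA of each culture was hybridised to 1 Affymetrix array, and the study looked for genes with higher expression in Tc9 than in Tc1 cells. The array taken as Tc9 bears that name in its title and description, while its source name says Tc1. The labels give no mouse strain, age or number of animals.

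Cells divide when cyclins bind and switch on their kinases. D cyclins with CDK4 or CDK6 respond to growth signals and begin to inactivate the retinoblastoma proteins, which frees E2F factors to switch on genes of DNA synthesis. Cyclins E and A with CDK2 then drive DNA replication, and cyclins A and B with CDK1 drive mitosis, while CIP/KIP and INK4 proteins hold the kinases back. T cells stimulated through CD3 and CD28 expand by repeated division in this way, and IL-2 and TGF-β are known to act on it in opposite directions, the first promoting and the second restraining division.

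Most of this machinery had closely similar signals on both arrays, as did most detectable genes. Among its members CDK inhibitors stood at both ends of the range of differences. Cdkn1b, which encodes p27, was 1.69-fold higher on the Tc9 array, and Cdkn1a, which encodes p21, was 1.51-fold lower. The D cyclins and Cdk6 had lower signals on the Tc9 array, whereas Cdk1, Cdk2, E2f1 and the INK4 genes Cdkn2c and Cdkn2d had higher ones. Each value is the log2 of the deposited signal intensity, and each difference is log2 Tc9 minus log2 Tc1. Each group was measured once, so the differences describe this pair of arrays and carry no test or error, and a change in the share of dividing cells and a change in RNA per cell cannot be told apart.

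Genes counted as detectable if the array with the stronger signal was at 6.43 or above on the log2 scale, which is the median of all gene values. Of the 61 genes, 50 were detectable and 11 were below the threshold on both arrays. Of the 50, 2 were at least 1.5-fold higher on the Tc9 array, where 7.80% of the 10147 detectable genes were, and 1 was at least 1.5-fold lower, where 6.78% were. None of the 50 passed 2-fold, which 2.62% of detectable genes did toward Tc9 and 2.79% toward Tc1. By sign alone, 28 of the 50 were higher and 22 lower on the Tc9 array, against 56.3% and 43.7% of detectable genes. The median difference of the 50 was 0.08, against 0.05 over all detectable genes, with values from -0.59 to 0.75. Neither share called among the 50 exceeded its background.

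The control probe sets give a yardstick for these sizes. The 1158 detectable probe sets whose IDs mark them as positive controls differed between the arrays with a median of 0.11 and a standard deviation of 0.34 over probe sets, and the 50 members had a standard deviation of 0.32. Past 1.5-fold lay 7.94% of these controls toward Tc9 and 2.68% toward Tc1. The members' differences therefore spread about as widely as those of the positive controls. Over all detectable genes the standard deviation was larger than that of the members, at 0.55, with values from -4.64 to 5.70. The median size of a difference, without its sign, was 0.25 for the members and 0.23 for all detectable genes. For the positive controls it was 0.21.

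**Figure D1:**
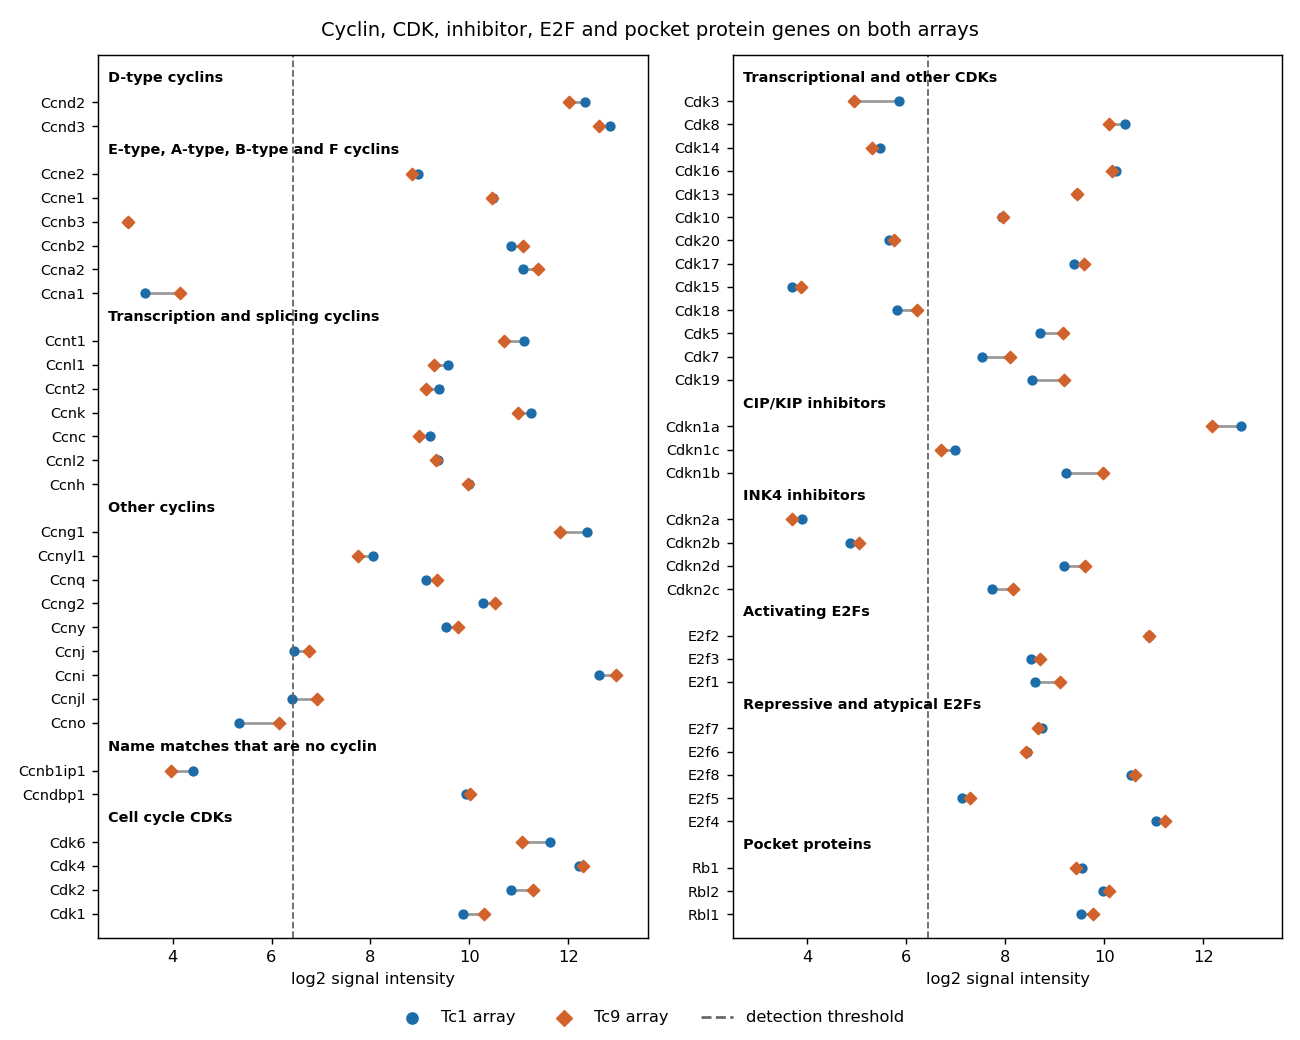
Log2 signal intensity (horizontal axis) of each of the 61 genes on the Tc1 array (circles) and the Tc9 array (diamonds), grouped by role, with the detection threshold of 6.43 dashed. The paired points lie close together for most genes, with the widest gaps above the threshold at Cdkn1b, Cdk19 and Cdkn1a. Levels of different genes come from different probes and are not to be compared.

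To show the control regions of the genes the results turn on, the 250 bases before the annotated start are printed for the pair of inhibitors with opposite differences and for 3 genes of the S and M phases that had higher signals on the Tc9 array. They are RefSeq sequences of the GRCm38.p6 build, written 5′ to 3′ on the gene's strand, and for Cdkn1a the first of 2 annotated starts by coordinate was taken. Capitals mark E2F motifs (TTTCCCGC, TTTCGCGC, TTTGCCGC or TTTGGCGC), cell cycle genes homology region motifs (TTTGAA or TTCGAA, called CHR) and CCAAT boxes, each on either strand. CHR and CCAAT elements are known from promoters of mitotic genes, and E2F sites from promoters of replication genes.
Cdkn1a, chr17:29090729-29090978, plus strand: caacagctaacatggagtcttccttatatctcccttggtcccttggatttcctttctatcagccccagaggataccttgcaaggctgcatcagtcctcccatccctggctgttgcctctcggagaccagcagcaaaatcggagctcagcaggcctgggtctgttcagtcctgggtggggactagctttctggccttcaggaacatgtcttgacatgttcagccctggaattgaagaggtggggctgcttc
Cdkn1b, chr6:134920151-134920400, plus strand: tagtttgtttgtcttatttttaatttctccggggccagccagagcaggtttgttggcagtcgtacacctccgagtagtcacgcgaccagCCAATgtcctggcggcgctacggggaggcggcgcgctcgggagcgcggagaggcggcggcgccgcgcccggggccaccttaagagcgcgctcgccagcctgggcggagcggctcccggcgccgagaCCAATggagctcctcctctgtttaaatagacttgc
Cdk1, chr10:69352913-69353162, minus strand: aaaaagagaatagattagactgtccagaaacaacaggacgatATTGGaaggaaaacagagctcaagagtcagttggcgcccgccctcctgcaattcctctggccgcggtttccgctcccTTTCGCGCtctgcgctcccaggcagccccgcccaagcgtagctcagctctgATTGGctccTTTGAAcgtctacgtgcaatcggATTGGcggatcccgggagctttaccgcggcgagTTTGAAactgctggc
Cdk2, chr10:128705052-128705301, minus strand: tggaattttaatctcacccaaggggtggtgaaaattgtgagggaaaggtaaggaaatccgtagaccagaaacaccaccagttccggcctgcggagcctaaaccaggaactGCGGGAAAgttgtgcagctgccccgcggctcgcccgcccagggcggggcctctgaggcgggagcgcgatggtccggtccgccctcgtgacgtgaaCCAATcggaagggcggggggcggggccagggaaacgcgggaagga
Ccnb2, chr9:70421555-70421804, minus strand: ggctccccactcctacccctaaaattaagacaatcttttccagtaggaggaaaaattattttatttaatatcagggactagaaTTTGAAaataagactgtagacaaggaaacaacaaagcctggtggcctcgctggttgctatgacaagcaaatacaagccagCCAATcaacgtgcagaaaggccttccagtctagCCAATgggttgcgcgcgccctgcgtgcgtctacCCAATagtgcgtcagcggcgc

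The Cdk1 window held 1 E2F match, 2 CHR matches and 3 CCAAT boxes, and the Cdk2 window 1 E2F match and 1 CCAAT box. Ccnb2 had 3 CCAAT boxes and 1 CHR match, with the boxes 21, 54 and 87 bases before the start. Cdkn1b had 2 CCAAT boxes and no other match, and neither Cdkn1a window had any of the 3 motifs. Of 32851 such windows in the table, 1.86% held an E2F match, 17.1% a CHR match and 33.8% a CCAAT box. Among the 55 windows found for 48 of the 61 genes the shares were 10.9%, 16.4% and 40.0%. The genes with an E2F match were Cdk1, Cdk2, Cdkn2a, E2f3, E2f7 and Rbl1. Of the 5 detectable ones E2f7 had a slightly lower signal on the Tc9 array and the others higher ones. Over all detectable genes 56.3% were higher by sign, and a link between motif and direction was not tested. These matches describe letters and not bound sites, and the motifs do not overlap each other in the printed windows.

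The CIP/KIP inhibitors bind cyclin and kinase together. Cdkn1a had a log2 signal of 12.77 in Tc1 and 12.18 in Tc9 cells, or intensities of 6984 and 4630. Cdkn1b had 9.22 and 9.97, or intensities of 597 and 1006. The pair thus differed in opposite directions, by -0.59 and 0.75, and the gap between them was the widest of 18 pairs of related genes compared, at 1.35 on the log2 scale. Cdkn1c, which encodes p57, lay near the threshold, at 6.98 and 6.70. The call for Cdkn1a is narrow: its difference was -0.55 when the arrays were quantile normalized and -0.52 when each was centred on its median over all genes, both short of 1.5-fold. Cdk19, described below, fell just short at 0.57 when the arrays were centred on the median of detectable genes, and Cdkn1b passed under each of these scalings. Just outside the 1.5-fold rule, which is 0.58 on the log2 scale, lay Cdk7, Cdk6 and Ccng1 with sizes of 0.56, 0.56 and 0.55.

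Bright genes differed less between the arrays than dim ones, so the size of a difference was also read among genes of like signal, a comparison chosen after the values were seen. Of the 208 other genes within 0.5 of the mean log2 signal of Cdkn1a, 7 (3.37%) had a larger difference in size. For Ccng1 this held for 11 of 299 genes (3.68%), for Cdkn1b for 127 of 2043 (6.22%) and for Cdk6 for 50 of 685 (7.30%). These 4 were the only ones of the 50 with under 10% of like genes beyond them. As this is a rank, about 10% of all detectable genes stand so by definition. The count of 4 therefore does not set the members apart. Cdk19, although past 1.5-fold, had 227 of 2269 like genes (10.0%) beyond it.

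**Figure D2:**
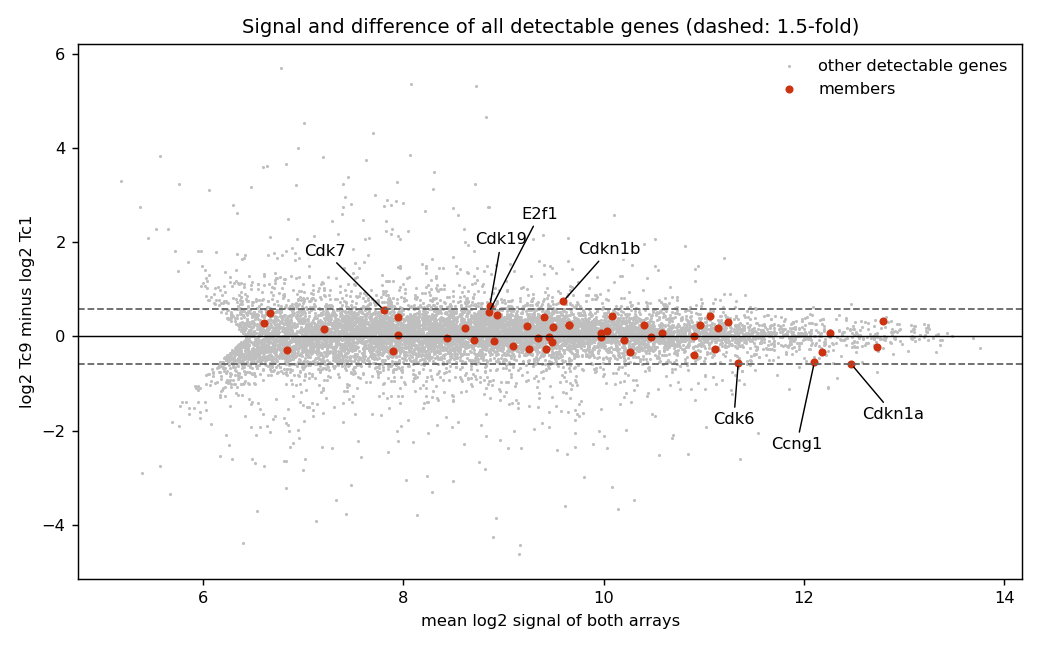
Difference between the arrays (vertical axis, log2 Tc9 minus log2 Tc1) against the mean log2 signal of both arrays for the 50 detectable members (red) and all other detectable genes (grey), with 1.5-fold dashed. The grey cloud narrows toward bright genes, and Cdkn1a and Ccng1 lie at its lower edge there.

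The INK4 inhibitors act on CDK4 and CDK6. Cdkn2c, which encodes p18, had log2 signals of 7.74 in Tc1 and 8.16 in Tc9 cells. Cdkn2d, which encodes p19 of the INK4 group, had 9.19 and 9.61. Both were higher on the Tc9 array by nearly the same size, 0.42 and 0.41. Cdkn2a and Cdkn2b, which share a locus, were below the threshold on both arrays, at 3.88 and 3.69 for Cdkn2a and 4.87 and 5.04 for Cdkn2b. Cdkn2b is a known target of TGF-β in epithelial cells, and at these signals no fold can be given for it.

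D cyclins link growth signals to CDK4 and CDK6. Ccnd2 had log2 signals of 12.34 in Tc1 and 12.01 in Tc9 cells, and Ccnd3 had 12.84 and 12.61. Both were lower on the Tc9 array, 1.26-fold and 1.18-fold. Cdk6 had 11.62 and 11.06 and was 1.48-fold lower, while Cdk4 had 12.22 and 12.30. The kinases that share the D cyclins therefore differed from each other by 0.64 on the log2 scale.

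The kinases and cyclins of S phase and mitosis lay on the other side of 0, except for the E cyclins. Cdk1, the mitotic kinase, had log2 signals of 9.86 in Tc1 and 10.30 in Tc9 cells. Cdk2, the S phase kinase, had 10.84 and 11.28. Both were higher on the Tc9 array by almost the same amount, 1.36-fold and 1.35-fold. Ccna2, their shared S and M phase cyclin, had 11.08 and 11.39 and was 1.24-fold higher. Ccnb2, a mitotic cyclin, had 10.84 and 11.08 and was 1.19-fold higher. Ccne1 and Ccne2, which open S phase, differed by -0.02 and -0.10, and the first changed sign when each array was centred on its median over all genes. The germline cyclins Ccna1 and Ccnb3 were below the threshold on both arrays.

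Among the activating E2F genes the differences were unequal. E2f1 had log2 signals of 8.60 in Tc1 and 9.11 in Tc9 cells and was 1.42-fold higher. E2f2 had 10.89 and 10.91, and its sign turned under quantile normalization and under centring on detectable genes. E2f3 differed by 0.18 on one of its probe sets and by 0.16 on the other. E2f4 and E2f5, which act with pocket proteins as repressors, differed by 0.18 and 0.17, and E2f6, a repressor that does not bind pocket proteins, by -0.02. E2f7 and E2f8, atypical repressors that bind DNA without a partner, differed by -0.08 and 0.08. The pocket protein genes Rb1, Rbl1 and Rbl2 differed by -0.12, 0.24 and 0.12, and none passed 1.5-fold.

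The cyclins that serve transcription and splicing all had lower signals on the Tc9 array as deposited, with a median of -0.27 over 7 genes, but Ccnh and Ccnl2 changed sign when each array was centred on its median over all genes. Ccnt1 and Ccnt2, which activate CDK9 in transcription elongation, had log2 signals of 11.09 and 9.39 in Tc1 and of 10.70 and 9.12 in Tc9 cells. Ccnk, the partner of CDK12 and CDK13, had 11.25 and 10.98. Ccnc, the Mediator kinase cyclin, differed by -0.21, and the splicing cyclins Ccnl1 and Ccnl2 by -0.27 and -0.04. Ccnh, of the CDK-activating kinase, differed by -0.01. None of the 7 passed 1.5-fold.

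CDKs outside the cell cycle group, among them kinases of these cyclins, differed in both directions. Cdk9 and Cdk12 were not analysed, and Cdk11b, from the list of CDK partners below, differed by -0.36. Cdk19 and Cdk8 are alternative kinases of the Mediator complex. Cdk19 had log2 signals of 8.54 in Tc1 and 9.19 in Tc9 cells and was 1.57-fold higher. Cdk8 had 10.43 and 10.11 and was 1.25-fold lower. Cdk7, the kinase that cyclin H activates, had 7.52 and 8.09 and was 1.48-fold higher. Cdk5, best known from neurons, had 8.70 and 9.17 and was 1.38-fold higher. Cdk10, Cdk13, Cdk16 and Cdk17 differed by 0.03, -0.01, -0.08 and 0.20. Cdk3, Cdk14, Cdk15, Cdk18 and Cdk20 were below the threshold on both arrays.

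Of the remaining cyclins, Ccng1, a p53 target, had log2 signals of 12.38 in Tc1 and 11.83 in Tc9 cells and was 1.47-fold lower. Its relative Ccng2, a FOXO target linked to cell cycle arrest, had 10.28 and 10.52. Ccni, an atypical cyclin, had 12.63 and 12.96. Ccny, a membrane-associated cyclin, differed by 0.25 and its relative Ccnyl1 by -0.31, and Ccnq by 0.23. Ccnj differed by 0.29, and Ccnjl, dim on the Tc1 array at 6.42, was at least 1.40-fold higher on the Tc9 array. Ccndbp1 differed by 0.08, and Ccno and Ccnb1ip1 were below the threshold on both arrays.

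**Figure D3:**
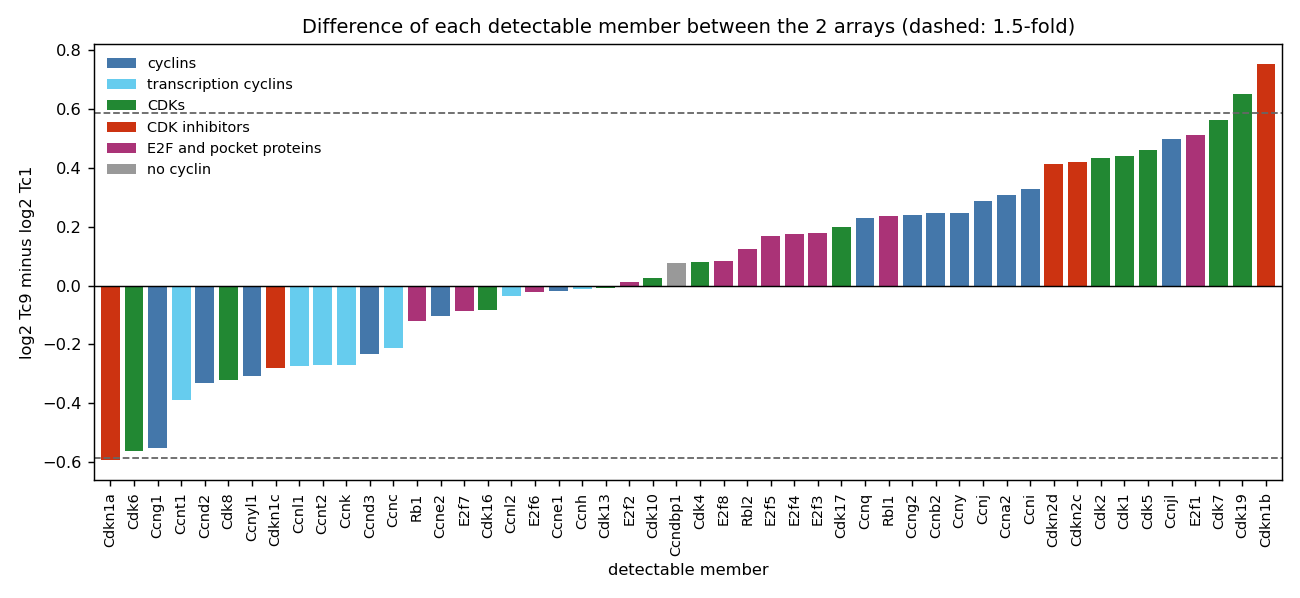
Difference between the arrays (vertical axis, log2 Tc9 minus log2 Tc1) for each of the 50 detectable members, sorted and coloured by family, with 1.5-fold dashed. CDK inhibitors stand at both ends, and the 7 transcription cyclins all lie below 0 as deposited, with Ccnh and Ccnl2 above it after centring over all genes.

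Some close relatives differed in direction. Of 18 pairs, a choice made with the values known, 7 had opposite signs and 4 had opposite differences that both exceeded 0.2 in size. These 4 were Cdkn1a with Cdkn1b, Cdk8 with Cdk19, Ccng1 with Ccng2, and Ccny with Ccnyl1, with gaps of 1.35, 0.97, 0.79 and 0.55 on the log2 scale. At the other end, Cdk1 with Cdk2, E2f4 with E2f5, and Cdkn2c with Cdkn2d each differed by 0.01. With 56.3% of all detectable genes higher and 43.7% lower by sign, opposite signs are also common between unrelated genes. No share over other pairs was computed, so these counts say nothing particular of relatives.

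Genes that act with this machinery were read from lists of the pathway. Their counts stand beside the shares over all detectable genes, of which 56.3% were higher and 43.7% lower by sign, and 7.80% and 6.78% passed 1.5-fold toward Tc9 and Tc1. Of 18 detectable genes that activate or restrain CDKs or degrade their partners, 2 were at least 1.5-fold higher on the Tc9 array and none was as much lower, with a median of 0.11. Under quantile normalization and under centring on detectable genes 1 was as much lower, where 7.21% and 8.89% of all detectable genes were. Under the latter 9 were higher and 9 lower by sign, against 12 and 6 as deposited. The median over all detectable genes was then -0.04. Cdkn3, a phosphatase that acts on CDKs, had intensities of 512 in Tc1 and 941 in Tc9 cells and was 1.84-fold higher. Cdc25c, the phosphatase that activates mitotic CDK1, had log2 signals of 7.70 and 8.54 and was 1.79-fold higher. Wee1, the kinase that opposes it, had 9.28 and 9.79. In the same list Cdc25b, Cdc25a and Pkmyt1 differed by 0.50, -0.17 and 0.005, so genes of that switch did not share 1 direction. Mnat1, the third subunit of the CDK-activating kinase, had 8.05 and 7.52.

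Of 30 mitotic kinase, spindle and kinetochore genes, 26 were higher by sign and 4 lower, with a median of 0.21, and 3 passed 1.5-fold toward Tc9, where 7.80% of all detectable genes passed, and none toward Tc1. By sign this is 86.7% higher, against 56.3% of all detectable genes. Over the 3 other scalings, between 24 and 27 of the 30 were higher by sign. The median over all detectable genes was 0.01 under quantile normalization, 0.12 under centring over all genes and -0.04 under centring on detectable genes. The share of all detectable genes by sign is not given for these scalings. The 3 past 1.5-fold were the checkpoint kinases Ttk and Bub1b and the spindle midzone protein Prc1, at 1.74-fold, 1.66-fold and 1.67-fold. Mki67, the proliferation marker Ki-67, had 11.79 and 11.95. Of 37 replication genes, 26 (70.3%) were higher by sign and 11 lower, with a median of 0.13, and none passed 1.5-fold. Beside both lists, the median was 0.05 over all detectable genes and 0.11 over the positive control probe sets. Over the other scalings 22 to 30 replication genes were higher by sign. After centring over all genes 2 passed 1.5-fold toward Tc9, where 9.89% of all detectable genes did. Rfc4, of the clamp loader, differed by 0.55, Lig1, the replicative ligase, by 0.54 and Gins1, of the replicative helicase, by 0.41. Of 9 partners of E2F and the MuvB complex none passed 1.5-fold, with a median of -0.21 and the largest sizes at Lin37 (-0.37), Mybl2 (-0.26) and Lin9 (-0.25).

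Genes of p53 and growth arrest had lower signals on the Tc9 array for 14 of 16 members by sign, with a median of -0.30, and 2 of them passed 1.5-fold toward Tc1 and none toward Tc9. Over all detectable genes 43.7% were lower by sign and 6.78% passed toward Tc1. After centring on detectable genes 3 of the 16 passed toward Tc1, where 8.89% of all detectable genes did. Gadd45b, a stress-induced gene that other pathways than p53 also switch on, had 8.72 and 7.62 and was 2.13-fold lower. Phlda3, a p53 target, was 1.66-fold lower. Mdm2, the p53 ubiquitin ligase, had 11.73 and 11.21 and was 1.43-fold lower. Cdkn1a and Ccng1, which p53 also switches on, lay on the same side. The 2 genes of the list with higher signals were Gadd45a, by 0.32, and Gadd45g, by 0.19. Tob1, Zmat3 and Bbc3 were close to no difference, at -0.02, -0.05 and -0.09. When each array was centred on its median over all genes, 12 of the 16 were lower by sign. The median over all detectable genes was then 0.12. Trp53 itself was not analysed here, and a part of p53 in these differences was not tested.

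Of 10 detectable genes of the Myc network, 2 passed 1.5-fold toward Tc9 and 1 toward Tc1, with a median of -0.07, where 7.80% and 6.78% of all detectable genes passed. Mxd1, which opposes Myc, had 9.64 and 8.59 and was 2.07-fold lower, and Mxd4, of the same family, was 1.58-fold higher. Mycl, dim on the Tc1 array at 6.04, was at least 1.14-fold higher, so its call rests on a dim value, and neither Mycl nor Mxd4 passed after centring on detectable genes. Myc, which drives growth and D cyclin genes, had 13.19 and 12.89. Of 14 detectable partners of transcriptional and atypical CDKs, 1 passed 1.5-fold in each direction, where 7.80% and 6.78% of all detectable genes passed toward Tc9 and Tc1, with a median of -0.08. Such counts are near the background and say nothing particular of these partners. Cables1, an adaptor of CDKs, had 7.53 on the Tc1 array and lay below the threshold on the Tc9 array at 5.60, at least 2.14-fold lower. Cdk2ap2 was 1.67-fold higher.

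**Figure D4:**
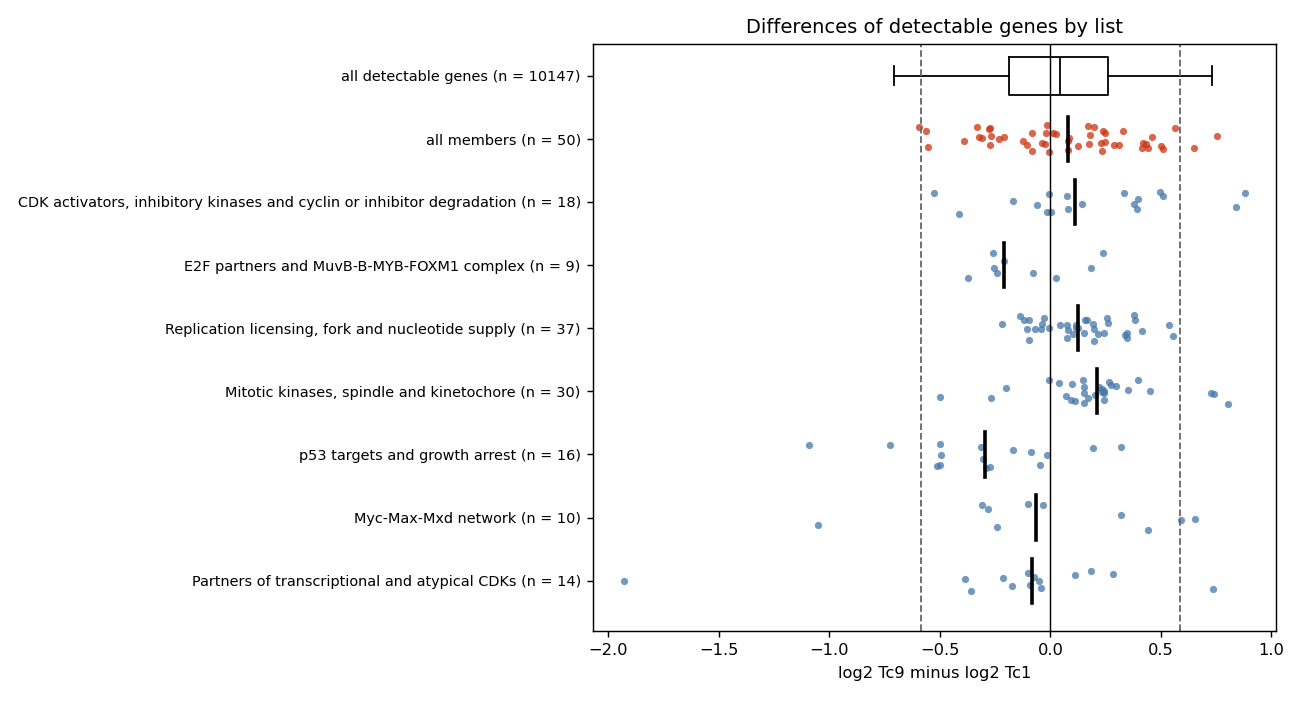
Difference between the arrays (horizontal axis, log2 Tc9 minus log2 Tc1) of each detectable gene in the members and 7 pathway lists (points), with list medians as black bars and all detectable genes as a box of quartiles with whiskers at the 5th and 95th percentiles. The p53 and growth arrest list has the lowest median, -0.30, and the mitotic list the highest, 0.21.

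The labelled cell type was checked on its markers. All 6 measured CD8 T cell markers were detectable and lower on the Tc9 array, with a median of -0.23. Cd8a was at 12.19 and 11.93 and Cd3e at 12.92 and 12.80, and 1 of the 6 turned after centring over all genes. Il9 was higher on the Tc9 array, at 4.82 and 8.45, and Ifng lower, at 9.28 and 7.57, as was Tbx21, at 9.56 and 6.50. All 6 measured B cell markers were detectable and lower on the Tc9 array, except that Ebf1 turned after centring over all genes, with a median of -0.43 and summed intensities of 3829 and 2654. Of 6 macrophage markers 2 were detectable, and all 6 had summed intensities of 604 and 723. Detectable were also 2 of 5 dendritic cell markers, 2 of 3 CD4 T cell markers and 1 of 3 NK cell markers, and the 1 erythroid marker was not. The dendritic cell markers were H2-Aa and Zbtb46, the latter below the threshold on the Tc9 array at 5.58. The NK cell marker was Kit, below the threshold on the Tc1 array at 6.33, while Ncr1 and Klrb1c were below it on both arrays. Of the CD4 T cell markers, Cd4 had 9.33 and 8.74 and Zbtb7b, a transcription factor of the CD4 lineage, 8.03 and 8.38, so they differed in opposite directions. B cells and other cells in division use the same cyclin and CDK genes, and the part of such cells in the differences above was not tested.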

How the data were processed

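The data were 1 Tc1 array and 1 Tc9 array, grouped by title. The deposited table holds linear signal intensity values of the authors. Biotin labelling by a sense-target method is given per the labels' protocols. How probes were summarized and normalized is not given in the sources used here. Quantiles of the arrays lay close together, so values were used as deposited. All 61 Entrez numbers matched the GRCm38.p6 RefSeq table with unchanged symbols. The probe set with the higher mean stood for a gene with several. A gene was detectable where its brighter array reached a log2 signal of 6.43, a level that 89.9% and 91.7% of the 5222 negative control probe sets, marked so in their IDs, did not reach on the Tc1 and Tc9 arrays. Where 1 array was below it, the fold is "at least", computed with the threshold. Size rules of 1.5-fold and 2-fold replaced a test, and the number of arrays limits the precision. The members, lists and the 1.5-fold rule were chosen with earlier results of these data known. Detectable members are all given, as are pathway genes past 1.5-fold or, with few, up to 3 with the largest size. Wee1, Mnat1, Mki67, Mdm2, Myc, Cdk11b, Cdc25a, Cdc25b, Pkmyt1, Gadd45a, Gadd45g, Tob1, Zmat3, Bbc3 and the pairs were added with their values known. The 10 alternatives covered scaling, offset, threshold, dim values and probe set choice. Python 3.11.15, pandas 2.3.3 and numpy 2.4.6 were used.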

Additional observations from a re-analysis of the deposited data

How the results depend on the processing

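The direction of the 3 members past 1.5-fold was kept under all 10 alternatives, with Cdkn1b between 0.67 and 0.82, Cdk19 between 0.57 and 0.72 and Cdkn1a between -0.67 and -0.52. Which members passed 1.5-fold depended on the scaling. Under quantile normalization 2 were higher and 0 lower, where 7.15% and 7.21% of all detectable genes passed toward Tc9 and Tc1. Centring each array on its median over all genes shifted differences by 0.07 and gave 3 higher, with Cdk7 added, and 0 lower, while 9.89% and 5.70% of all detectable genes passed toward Tc9 and Tc1. Centring on the median of detectable genes shifted them by -0.08 and gave 1 higher, Cdkn1b, and 3 lower, Cdkn1a, Cdk6 and Ccng1, with 5.94% and 8.89% of all detectable genes. Without a detection filter 4 of the 61 were higher and 2 lower, where 6.82% and 7.94% of all 19505 genes were. The added ones, Ccna1, Ccno and Cdk3, were dim on both arrays. Of the 50 members, 48, 45 and 47 kept their sign under quantile normalization, centring over all genes and centring over detectable genes in turn, and those that did not were Ccne1, Ccnh, Ccnl2, Ccndbp1, Cdk10, Cdk13, E2f2 and E2f6, each under 0.08 in size as deposited. No member passed 2-fold under any alternative. The median of the members stayed between 0.00 and 0.15. With the 95th percentile of the negative controls as threshold, Cdkn1c dropped out and the CIP/KIP median became 0.080. The 7 transcription cyclins kept a median between -0.35 and -0.20, the mitotic genes between 0.13 and 0.28, and the p53 and growth arrest genes between -0.38 and -0.23. No replicate could be left out, since each group has 1 array. No paired analysis was possible because each group has 1 array and no test was made.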
